A study of Macaca mulatta with 12 samples.

Results

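PRR4, MSC, CD70, TNFSF18, FAM20A, SRGN, CLEC2B and CHRNA1 are 8 of the 16745 genes in the deposited expression table. They were taken by symbol and had been chosen by their differences between engineered heart tissue and monolayer culture in earlier results of these data, in normoxia and in hypoxia. That difference selected them, so it is described here without a test. All 8 passed the filter on low values, set on the mean over all 12 libraries, that left 12084 genes for testing. PRR4 passed it only through engineered heart tissue, where it was chosen as high. Its monolayer means were 3.00 and 3.16 on the log2 scale of the deposited values, whose minimum is 3.00.

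RNA came from cultures labelled as cardiomyocytes derived from induced pluripotent stem cells of rhesus macaque (Macaca mulatta). The cells were grown as a monolayer on a flat surface or cast into a three-dimensional tissue called engineered heart tissue (EHT), and both formats were kept in RPMI medium with B27 and insulin. Each format was studied in normoxia, ordinary oxygen, and in hypoxia, given by the labels as anaerobic pouches for 24 hours followed by 24 hours after new medium. Monolayer normoxia, monolayer hypoxia, EHT normoxia and EHT hypoxia each held 3 libraries of total RNA. The labels do not say when RNA was taken or whether normoxic cultures also had a medium change, so oxygen and medium change cannot be told apart. They name neither a cell line nor a separate differentiation for each replicate, and the spread between replicates may therefore be technical.

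The 8 genes belong to no single pathway. CD70 and TNFSF18 (GITR ligand) are membrane ligands of the tumour necrosis factor (TNF) family, known in human for binding CD27 and TNFRSF18 on lymphocytes. MSC (musculin) is a basic helix-loop-helix (bHLH) repressor described in B cells and muscle precursors and a close relative of TCF21. FAM20A is a pseudokinase of the secretory pathway that enhances the kinase FAM20C, and SRGN (serglycin) is the core protein of proteoglycans in secretory granules of blood and endothelial cells. CLEC2B is a C-type lectin-like protein that binds the natural killer cell receptor KLRF1 in human. CHRNA1 is the ligand-binding alpha subunit of the muscle nicotinic acetylcholine receptor. PRR4 is a proline-rich protein known in human from lacrimal and salivary gland secretions. In the macaque gene references used here the symbol PRR4 had no match, so which locus carries it could not be checked.

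Library depth ran from 4154346 to 11298841 reads. Levels below are RPM, the reads of a gene scaled to a library total of 1000000 reads, computed from the whole read counts behind the deposited values, always for replicates 1, 2 and 3 in that order. Log2 differences are differences between group means of the deposited variance-stabilised values, with the standard error (SE) of a model that spans all 12 libraries. These differences understate the fold of genes with few reads. The values are not divided by transcript length, so levels are compared between libraries and not between genes.

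The label's cardiomyocyte identity was checked against 8 marker genes, all in the table. Their summed level was 406 to 5372 RPM in the monolayer libraries and 11.9 to 664 in the EHT libraries. In EHT replicate 3 of both oxygen conditions the sum was 11.9 and 14.9, and MYH6 (the atrial-type myosin heavy chain) had 1 read in normoxia and 0 in hypoxia, which allows up to 0.679 RPM. Fibroblast markers summed to 33253 to 70380 RPM in every library. In bulk RNA, fewer cells of a type and less RNA per cell cannot be told apart.

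**Figure D1:**
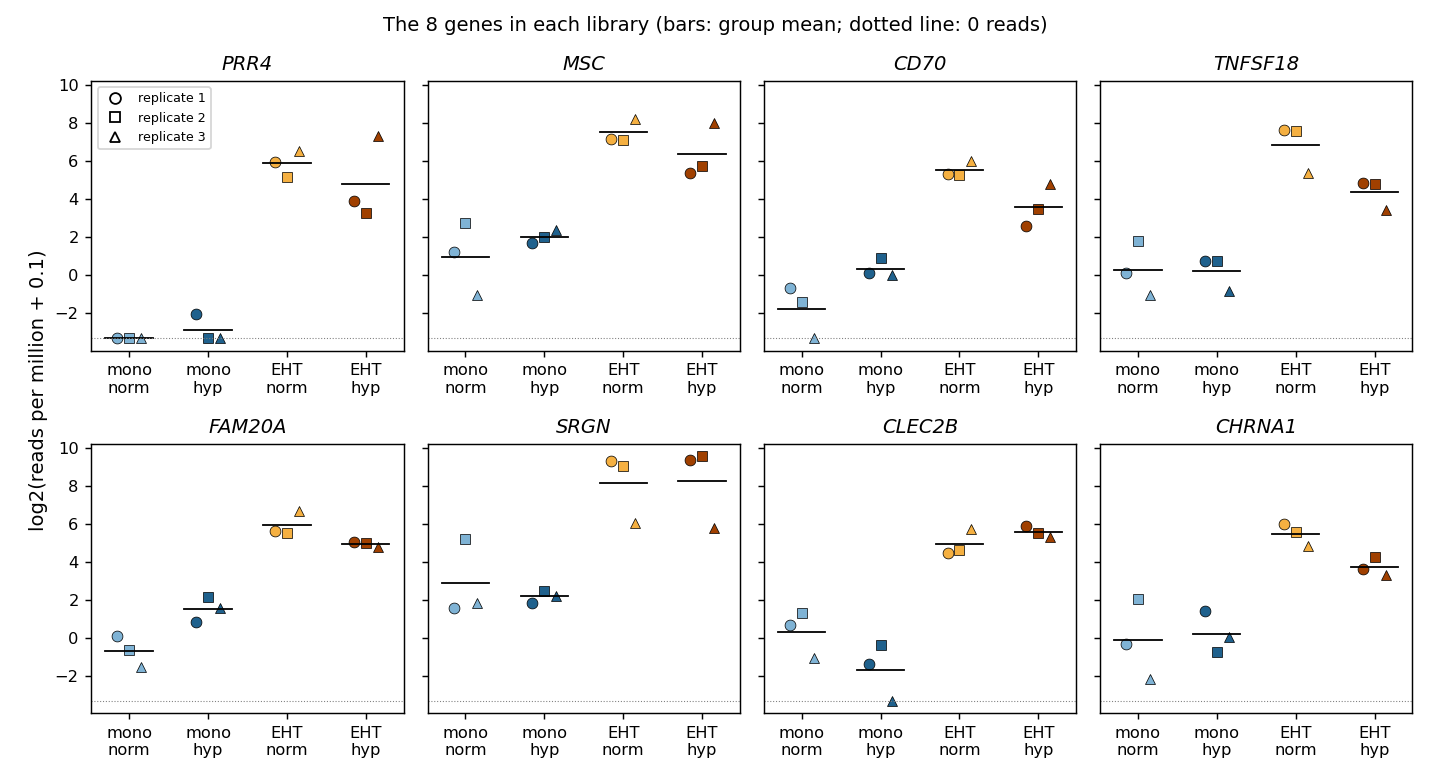
Level of each of the 8 genes in the 12 libraries, on a log2 axis of RPM plus 0.1, with a bar at the group mean of the plotted values and a dotted line at 0 reads. In every panel the 6 EHT libraries lie above the 6 monolayer libraries of the same gene; PRR4 lies on the dotted line in 5 of the 6 monolayer libraries, and the narrowest gap is that of SRGN.

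PRR4 was close to absent from monolayer culture. It had 0 reads in all 3 monolayer normoxia libraries, where the limit set by 3 reads over the group is 0.0999 RPM. In monolayer hypoxia it had 1 read, in replicate 1. In EHT normoxia the level was 62.3, 35.6 and 93.5 RPM, and in EHT hypoxia it was 14.7, 9.49 and 157. Replicate 3 was the highest EHT library in both conditions, and the normoxic and hypoxic EHT ranges overlapped.

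EHT normoxia stood at least 628-fold above monolayer normoxia for PRR4. The corresponding ratio of pooled reads in hypoxia was 1305, with an exact 95% counting interval from 234 to 51612 because a single monolayer read supports it. Such intervals cover counting error only. The log2 difference between EHT and monolayer was 5.48 ± 0.49 (model SE, n = 3 per group) in normoxia and 4.77 ± 0.49 in hypoxia. Without EHT hypoxia replicate 3 the second value was 3.34. The model SE leaves out the spread of PRR4 itself, which ran from 9.49 to 157 RPM in EHT hypoxia.

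MSC, the bHLH repressor, was measured at low levels in monolayer, at 2.21, 6.65 and 0.380 RPM in normoxia and 3.11, 3.91 and 5.17 in hypoxia. It stood at 145, 138 and 302 in EHT normoxia and at 41.5, 53.8 and 253 in EHT hypoxia. Every EHT library was above every monolayer library, and replicate 3 was again the highest of its group. Mean levels in normoxia were 195 ± 92.5 RPM (SD, n = 3) in EHT and 3.08 ± 3.23 in monolayer, a ratio of 63.2. The ratio in hypoxia was 28.5. Log2 differences were 5.21 ± 0.49 (SE) in normoxia and 3.75 ± 0.49 in hypoxia.

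CD70, the ligand of CD27, had between 0 and 18 reads in any monolayer library. Its monolayer level was 0.531, 0.277 and 0 RPM in normoxia and 0.990, 1.76 and 0.919 in hypoxia. EHT normoxia gave 39.7, 37.8 and 64.6, and EHT hypoxia gave 5.86, 10.99 and 27.4. The 4 ranges were separate, in the order monolayer normoxia, monolayer hypoxia, EHT hypoxia, EHT normoxia. The ratio of EHT to monolayer means was 176 in normoxia and 12.1 in hypoxia, and the log2 differences were 4.63 ± 0.49 (SE) and 2.27 ± 0.49. Without EHT hypoxia replicate 3, the highest of its group, the hypoxia difference was 1.504.

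TNFSF18, the GITR ligand, also stood higher in every EHT library than in any monolayer library. Monolayer levels were 0.974, 3.42 and 0.380 RPM in normoxia and 1.56, 1.56 and 0.460 in hypoxia, with 3 to 37 reads per library. EHT normoxia gave 200.03, 191 and 41.2, and EHT hypoxia gave 28.8, 27.4 and 10.6. Here replicate 3 was the lowest EHT library of each condition, opposite to PRR4, MSC and CD70. The ratio of means was 90.6 in normoxia and 18.7 in hypoxia. The log2 differences were 4.98 ± 0.49 (SE) and 2.96 ± 0.49, and the normoxia value was 5.81 without EHT normoxia replicate 3.

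FAM20A, the pseudokinase, ranged from 0.253 to 0.974 RPM in monolayer normoxia, at 0.974, 0.554 and 0.253, from 11, 6 and 2 reads. In monolayer hypoxia it was 1.70, 4.40 and 2.87. The EHT libraries gave 49.1, 45.4 and 101 in normoxia and 33.4, 31.3 and 27.2 in hypoxia. The hypoxic EHT mean was 30.6 ± 3.17 RPM (SD, n = 3), a narrow spread. Its 4 ranges were separate, in the same order as those of CD70. The EHT mean was 110 times the monolayer mean in normoxia and 10.2 times in hypoxia, with log2 differences of 4.53 ± 0.49 (SE) and 2.69 ± 0.49.

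SRGN, the granule proteoglycan core, had the narrowest gap between cultures. Its monolayer normoxia levels were 2.92, 36.1 and 3.42 RPM, with replicate 2 far above the other 2, and its monolayer hypoxia levels were 3.54, 5.48 and 4.48. EHT normoxia gave 622, 516 and 66.8, and EHT hypoxia gave 658, 756 and 55.5. In normoxia the lowest EHT library was only 1.85 times the highest monolayer library. Means differed by a ratio of 28.4 in normoxia and 109 in hypoxia, and log2 differences were 4.46 ± 0.48 (SE) and 5.48 ± 0.48.

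CLEC2B, the lectin-like ligand, was one of 2 genes, with SRGN, whose log2 difference was larger in hypoxia. Its monolayer levels were 1.505, 2.40 and 0.380 RPM in normoxia and 0.283, 0.685 and 0 in hypoxia. EHT normoxia gave 21.7, 24.3 and 52.6, and EHT hypoxia gave 59.7, 46.4 and 40.1. The monolayer ranges overlapped, as did the EHT ranges, and the cultures were separate. The ratio of means was 23.0 in normoxia and 151 in hypoxia, with log2 differences of 3.14 ± 0.49 (SE) and 4.96 ± 0.49.

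CHRNA1, the receptor subunit, had 1 to 44 reads per monolayer library. Monolayer levels were 0.708, 4.07 and 0.127 RPM in normoxia and 2.55, 0.489 and 0.919 in hypoxia. EHT normoxia gave 62.8, 47.3 and 28.9, and EHT hypoxia gave 12.4, 18.7 and 9.96. The hypoxic EHT range lay between the monolayer range and the normoxic EHT range without touching either. The ratio of means was 28.4 in normoxia and 10.4 in hypoxia, and the log2 differences were 3.79 ± 0.49 (SE) and 2.38 ± 0.49.

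Across the 8 genes the EHT and monolayer ranges of RPM did not overlap for 8 of 8 in normoxia and 8 of 8 in hypoxia. Over all genes tested, EHT lay above monolayer without overlap for 14.6% in normoxia and 28.4% in hypoxia. RPM is scaled by library totals alone, so these shares hold on that scale. The median log2 difference of the 8 genes was 4.58 in normoxia and 3.35 in hypoxia, beside medians over all genes tested of -0.66 and -0.06. Ranked by log2 difference among the 12084 genes, they held places 1 to 31 in normoxia and 1 to 137 in hypoxia. PRR4 was first in normoxia and SRGN in hypoxia, while CLEC2B was the lowest of the 8 in normoxia and CD70 in hypoxia. These counts, medians and places follow from how the genes were chosen. Only for PRR4 was the monolayer level at or near 0 reads throughout; the other 7 were low there but present, with 9 to 451 reads per group of 3 libraries.

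**Figure D2:**
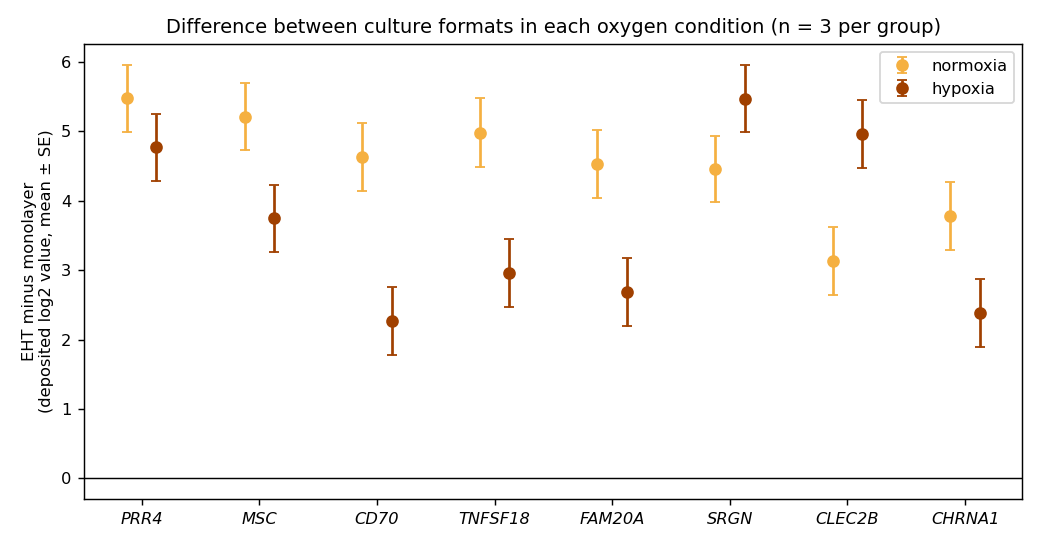
EHT minus monolayer difference of the deposited log2 values for each gene in normoxia and hypoxia, as mean ± SE with 3 libraries per group. The SE comes from the variance trend shared by all genes. All 16 differences are above 2, the normoxia value is the larger for 6 genes, and the hypoxia value is the larger for SRGN and CLEC2B.

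Within EHT, the 8 genes did not share 1 order of libraries. In normoxia, EHT replicate 3 stood above the mean of replicates 1 and 2 for PRR4 (1.91-fold), MSC (2.13-fold), CD70 (1.67-fold), FAM20A (2.13-fold) and CLEC2B (2.29-fold). It stood below that mean for TNFSF18 (4.75-fold), SRGN (8.52-fold) and CHRNA1 (1.91-fold). In hypoxia the same side was held by PRR4 (12.9-fold higher), MSC (5.30-fold higher), CD70 (3.25-fold higher), TNFSF18 (2.64-fold lower), SRGN (12.8-fold lower) and CHRNA1 (1.56-fold lower). FAM20A and CLEC2B changed side, at 0.840 and 0.756 times the mean of replicates 1 and 2.

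Marker sums of other cell types differed between the same libraries. Of 20 leukocyte markers 19 were in the table, and they summed to 251, 181 and 15.2 RPM in EHT normoxia and 87.9, 213 and 14.0 in EHT hypoxia. PTPRC (CD45, carried by nearly all leukocytes) had 28, 42 and 0 reads in EHT normoxia and 14, 77 and 0 in EHT hypoxia, and 0 reads allows up to 0.388 and 0.679 RPM. The leukocyte sum did not separate the cultures, since monolayer libraries held 94.0 to 484 RPM in normoxia and 43.4 to 43.9 in hypoxia. In the 2 EHT libraries with 0 PTPRC reads, SRGN, TNFSF18 and CHRNA1 were at their lowest EHT level of each condition. Each stood above all its monolayer libraries there. Among monolayer libraries, normoxia replicate 2 had the highest leukocyte sum, 484 RPM, and 138 PTPRC reads. SRGN, TNFSF18, CHRNA1, MSC and CLEC2B were at their highest monolayer level in that library, and PRR4, CD70 and FAM20A were not. The part of leukocytes in the level of SRGN or any of the other genes was not tested beyond these values.

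Endothelial markers, 9 of 10 in the table, summed to 191 to 426 RPM in monolayer and 17.2 to 100.45 in EHT. CDH5 (VE-cadherin) had 0 to 5 reads in each EHT library, beside 10 to 104 in monolayer normoxia and 0 to 1 in monolayer hypoxia. PECAM1 (CD31) did not follow the lower sum in EHT. It stood at 6.39 to 55.9 RPM in EHT, highest in EHT normoxia replicate 3, where the endothelial sum was 64.6. Its monolayer levels were 0.685 to 1.72 in hypoxia, below every EHT library, and 3.04 to 16.8 in normoxia. The normoxic ranges overlapped, since the lowest EHT normoxia library had 16.1. Skeletal myoblast markers, 11 of 11 in the table, ranged from 6.73 to 144 in EHT, with replicates 1 and 2 of EHT hypoxia the highest at 51.5 and 144. MYOD1 and MYOG, the defining factors of that list, had 0 and 6 reads over the 6 EHT libraries. Of 19 salivary and lacrimal gland markers 6 were in the table, and their sum was at most 0.388 RPM in any EHT library; the defining markers PRH1 and PRH2 were not analysed here. Epithelial markers summed to 7.51 to 21.7 in EHT and 22.1 to 494 in monolayer, and EPCAM had 0 to 18 reads in each EHT library. The part of these cell types in the levels of the 8 genes was not tested.

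With replicate 3 of both EHT groups left out, the EHT minus monolayer log2 difference in normoxia was 5.26 for PRR4, 4.96 for MSC, 4.50 for CD70, 5.81 for TNFSF18 and 5.57 for SRGN. In hypoxia it was 3.34 for PRR4, 2.68 for MSC, 1.504 for CD70, 3.13 for TNFSF18 and 6.41 for SRGN. FAM20A, CLEC2B and CHRNA1 moved by less than 0.5 in either condition.

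**Figure D3:**
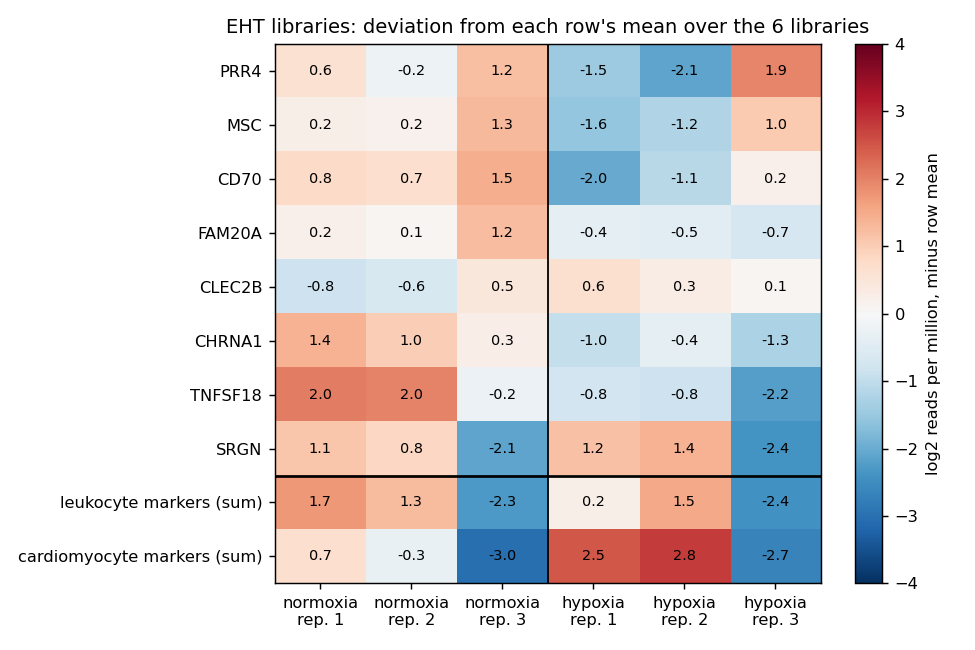
Deviation of log2 RPM from the mean of the 6 EHT libraries, for the 8 genes and for the summed leukocyte and cardiomyocyte markers, with normoxia left and hypoxia right of the vertical line. Replicate 3 is above the row mean in both conditions for PRR4, MSC, CD70 and CLEC2B and below it in both for SRGN, TNFSF18 and the 2 marker sums.

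Averaged over both cultures, the oxygen comparison is uncorrelated with the differences that chose the genes only if all groups vary alike. They did not for TNFSF18, whose log2 SD was 1.46 in EHT normoxia and 0.30 to 0.56 in the other groups. The choice of genes may therefore also enter its p-value. Hypoxia minus normoxia, averaged over monolayer and EHT, was tested with limma over all 12084 genes with Benjamini-Hochberg adjustment at 0.05. TNFSF18 was the 1 gene of the 8 to pass, and none of the 8 was called higher. In this comparison 14.7% of all genes tested were called lower and 8.41% higher, 23.1% in all (28.3% higher and 21.0% lower after centring each library on its median), and 1 call among 8 lies near that background.

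TNFSF18 had an averaged log2 difference of -0.99 ± 0.35 (SE, n = 6 libraries per oxygen condition, limma adjusted p = 0.0248). Nearly all of it came from EHT, where the difference was -2.00 ± 0.49 against 0.03 ± 0.49 in monolayer. The call was lost after centring each library on its median (-0.79, adjusted p = 0.175), under quantile normalization (-0.76, adjusted p = 0.135), without the low-value filter (-0.99, 0.0821), under median-of-ratios scaling (-0.997, 0.0572) and with limma's voom on the recovered reads (-0.85, 0.577). It was also lost without monolayer normoxia replicate 2 (0.106), monolayer hypoxia replicate 3 (0.0684), EHT normoxia replicate 1 (0.192) or EHT normoxia replicate 2 (0.101).

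The other 7 genes did not pass in this comparison. CHRNA1 had an averaged log2 difference of -0.50 ± 0.35 (SE, limma adjusted p = 0.311) and FAM20A had 0.38 ± 0.35 (adjusted p = 0.469). The remaining 5 lay between -0.19 for PRR4 (adjusted p = 0.739) and 0.11 for CLEC2B (adjusted p = 0.863), with MSC at 0.05, SRGN at 0.02 and CD70 at -0.13. Their 95% intervals reached at most 0.87 log2 units below 0 and 0.79 above it. Opposite directions in the 2 cultures stood behind several of these averages near 0.

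In EHT alone, hypoxic levels lay below normoxic levels without overlap for 4 of the 8 genes in RPM, TNFSF18, CHRNA1, CD70 and FAM20A, and 29.3% of all genes tested did the same. None of the 8 lay higher in hypoxia without overlap on that scale, beside 15.1% of all genes tested. By limma after centring each library on its median, 19.5% of all genes were higher and 16.0% lower in EHT hypoxia. The mean in EHT normoxia was 6.47 times that in hypoxia for TNFSF18, 3.39 times for CHRNA1, 3.21 times for CD70 and 2.13 times for FAM20A. The same 4 genes were separate after median-of-ratios scaling, while on the deposited values only TNFSF18 and CHRNA1 were, and CLEC2B was higher in hypoxia there. PRR4 and MSC had log2 differences of -0.54 ± 0.49 (SE) and -0.69 ± 0.49 in EHT, SRGN had 0.53 ± 0.48 and CLEC2B had 1.02 ± 0.49. Without EHT hypoxia replicate 3, the difference was -1.98 for PRR4, -1.75 for MSC, 1.47 for SRGN and -2.07 for CD70, which stood at -1.31 with it. That of PRR4 was 0.04 and 0.31 without EHT hypoxia replicate 1 or 2, that of MSC was -0.07 and -0.24, and that of SRGN was -0.58 without EHT normoxia replicate 3. So the direction in EHT rests on single libraries for PRR4 and SRGN.

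In monolayer, 2 of the 8 genes, CD70 and FAM20A, lay higher in hypoxia without overlap, at 4.54 and 5.04 times the normoxic mean. Over all genes tested 12.7% did so, and 59.0% lay lower in hypoxia. The normoxic means behind the 2 ratios rest on only 9 reads for CD70 and 19 for FAM20A over the group. RPM is scaled by library totals alone, so these shares and ratios hold on that scale. By limma after centring each library on its median, 27.8% of all genes were higher and 18.6% lower in monolayer hypoxia. CD70 and FAM20A were also separate after median-of-ratios scaling. The log2 differences in monolayer were 1.06 ± 0.49 (SE) for CD70 and 1.30 ± 0.49 for FAM20A, and those of the other 6 ran from -0.80 for CLEC2B to 0.78 for MSC. Hypoxic levels below the normoxic range in EHT and above it in monolayer, as for CD70 and FAM20A in RPM, were found for 1.25% of all genes tested. These within-culture values use the libraries that chose the genes and carry no test.

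**Figure D4:**
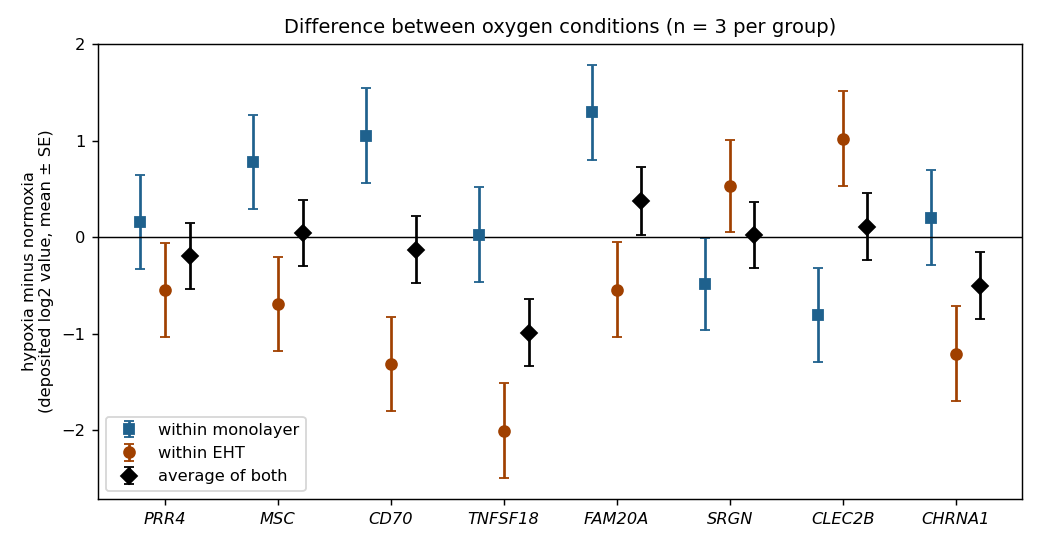
Hypoxia minus normoxia difference of the deposited log2 values for each gene within monolayer, within EHT and averaged over both, as mean ± SE with 3 libraries per group. Each SE comes from the variance trend shared by all genes. For CD70, MSC and FAM20A the monolayer value is above 0 and the EHT value below it, for CLEC2B and SRGN it is the reverse, and only the average of TNFSF18 passed the test.

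The relatives and partners of the 8 genes were measured in the same libraries, from 7 lists that hold 143 genes other than the 8. Of these, 130 were in the table and 87 passed the low-value filter. In normoxia 5 were higher and 26 lower in EHT than in monolayer by limma at an adjusted p of 0.05, beside 2.69% higher and 25.6% lower over all genes tested. In hypoxia 10 were higher and 12 lower, beside 5.02% and 7.83%. The lists' median log2 difference was -0.69 in normoxia and -0.16 in hypoxia, close to the -0.66 and -0.06 of all genes, whereas the 8 genes lay at 4.58 and 3.35 by their choice. Centring each library on its median raised every normoxia difference by 0.74 log2 units, put all genes at 22.8% higher and 18.5% lower in normoxia, and changed the normoxia split to 20 higher and 14 lower, and the hypoxia split, with a shift of 0.04, to 16 and 18, beside 18.4% higher and 19.7% lower over all genes.

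Among the 7 tested relatives of CD70 and TNFSF18 in the TNF ligand list, TNFSF11 (RANK ligand) was higher in EHT in both conditions. Its level in normoxia was 11.99 ± 6.28 RPM (SD, n = 3) in EHT and 2.02 ± 0.450 in monolayer, with a log2 difference of 1.42 (limma adjusted p = 0.0158). In hypoxia the log2 difference was 2.88 (adjusted p = 1.8e-07). EDA (ectodysplasin) was lower in EHT in both conditions, by log2 differences of -1.31 (adjusted p = 0.0206) and -2.02 (3.4e-04). TNFSF10 (TRAIL) was lower in normoxia at -1.24 (0.0355) and higher in hypoxia at 2.01 (5.6e-04). The normoxia calls of EDA and TNFSF10 were lost after centring (0.303 and 0.480), and those of all 3 genes were lost on leaving out single libraries, with adjusted p up to 0.116 for TNFSF11, 0.128 for EDA and 0.272 for TNFSF10.

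The receptors on the other side of these ligands were scarce. CD27 had 9 reads over all 12 libraries and did not pass the filter. TNFRSF18 had 26, 30 and 9 reads in monolayer normoxia, 4, 1 and 4 in monolayer hypoxia, 5, 7 and 3 in EHT normoxia and 6, 9 and 1 in EHT hypoxia. Its EHT minus monolayer log2 difference was -0.75 in normoxia (limma adjusted p = 0.218) and 0.33 in hypoxia (0.749). Neither receptor exceeded 7 reads in any EHT normoxia library, and CD27 had at most 5 there.

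Of the 26 tested TNF family receptors and TRAF adaptors, 2 were higher and 6 lower in EHT in normoxia, and 5 were higher and 1 lower in hypoxia. Over all genes tested, 2.69% were higher and 25.6% lower in normoxia, and 5.02% and 7.83% in hypoxia. After centring, the normoxia split was 8 and 4, beside 22.8% and 18.5% of all genes. The hypoxia split was then 5 and 3, beside 18.4% and 19.7%. NGFR (the p75 neurotrophin receptor), EDAR (the receptor of ectodysplasin) and TNFRSF19 were lower in EHT normoxia, with log2 differences of -4.45, -3.55 and -3.26 (limma adjusted p = 7.4e-18, 1.1e-12 and 5.3e-10). NGFR was also lower in hypoxia at -1.85 (0.00260), a call lost without EHT hypoxia replicate 3 (0.0530). TNFRSF25 (death receptor 3) was higher in hypoxia at 2.56 (6.6e-06), and TNFRSF11B (osteoprotegerin, a decoy receptor of TNFSF11) at 1.74 (0.00564). The TNFRSF11B call was lost after centring (0.0581), under median-of-ratios scaling (0.0563) and without monolayer hypoxia replicate 1 (0.0559).

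Among musculin's relatives, 12 bHLH factors, E proteins and ID proteins were tested by limma. In EHT normoxia 0 were higher and 7 lower, beside 2.69% and 25.6% over all genes tested, and in EHT hypoxia 0 were higher and 3 lower, beside 5.02% and 7.83%. After centring, the normoxia split was 1 higher and 5 lower, beside 22.8% and 18.5%. TCF21, its closest relative, had a mean of 6.20 RPM in EHT normoxia and 24.1 in monolayer normoxia, with a log2 difference of -1.91 (limma adjusted p = 6.6e-04), a call lost without monolayer normoxia replicate 3 (0.0542). In hypoxia it was 0.27 (0.811). HAND1, a factor of early heart and extraembryonic tissue, was lower by -4.73 in normoxia (6.3e-20) and -2.02 in hypoxia (8.4e-04). ID4 was lower in normoxia (-2.74, 3.7e-07), ID3 in hypoxia (-2.77, 4.2e-07) and ID1 in both (-2.23, 3.7e-05 and -2.92, 8.5e-08).

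Of the other subunits of the muscle nicotinic receptor, CHRNB1 and CHRNE were tested and gave no call on the deposited values. CHRNG and CHRND did not pass the filter and were not tested. CHRNB1 had a mean of 5.65 RPM in EHT normoxia and 8.92 in monolayer normoxia, and its log2 differences were -0.80 (limma adjusted p = 0.216) and, in hypoxia, 0.91 (0.249). The hypoxia difference of CHRNB1 passed after centring (0.0259). CHRNE had 6 reads in EHT normoxia and 12 in EHT hypoxia, CHRNG had 0 and 3, and CHRND had 0 and 1. In monolayer normoxia and monolayer hypoxia CHRNE had 47 and 16 reads, CHRNG had 18 and 0, and CHRND had 8 and 3. The limit set by 3 reads over the group is 0.146 RPM in EHT normoxia and 0.180 in EHT hypoxia.

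Of 10 tested nicotinic subunits and end-plate genes, none was higher in EHT normoxia and 7 were lower, and in hypoxia 1 was higher and 3 were lower. Over all genes tested, 2.69% were higher and 25.6% lower in normoxia, and 5.02% and 7.83% in hypoxia. LRP4 (the agrin receptor), ACHE (acetylcholinesterase) and COLQ (its collagen tail) were lower in EHT normoxia at -2.85, -2.52 and -1.97 (limma adjusted p = 8.0e-08, 1.1e-06 and 4.6e-04). CHRNA3, a neuronal subunit, was lower in hypoxia at -1.97 (5.0e-04), and RAPSN (rapsyn, which clusters the receptor) was higher at 1.68 (0.00615). ACHE was lower in hypoxia too at -1.49 (0.0163), a call that leaving out single libraries ended, with an adjusted p up to 0.109. After centring, the normoxia split was 1 higher and 4 lower, beside 22.8% and 18.5% of all genes.

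FAM20C, the kinase that FAM20A enhances, had means of 105 ± 8.31 RPM (SD, n = 3) in EHT normoxia and 51.6 ± 10.3 in monolayer normoxia, and 55.8 ± 17.4 and 26.4 ± 3.72 in hypoxia. Its log2 differences of 0.65 and 0.86 did not pass on the deposited values (limma adjusted p = 0.308 and 0.274) and did after centring, at 1.39 (2.3e-04) and 0.89 (0.00521). FAM20B, a xylose kinase of the same family, did not pass at -1.06 (0.0877) and -0.21 (0.863). PKDCC, another secreted kinase, was lower in EHT at -1.96 (4.9e-04) and -2.26 (1.1e-04), the normoxia call being lost after centring (0.0977) and without EHT normoxia replicate 3 or monolayer normoxia replicate 3 (up to 0.163). FAM198B was lower in hypoxia at -2.01 (5.6e-04).

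Serglycin carries glycosaminoglycan chains, and 24 genes that build such chains were tested. In normoxia 2 were higher and 2 lower in EHT, beside 2.69% and 25.6% of all genes tested. In hypoxia 1 was higher and 2 were lower, beside 5.02% and 7.83%. After centring, the normoxia split was 8 and 1, beside 22.8% and 18.5% of all genes. The hypoxia split was then 5 and 4, beside 18.4% and 19.7%. CSGALNACT1, which starts chondroitin sulfate chains, was higher in EHT normoxia at 1.95 (limma adjusted p = 5.2e-04). CHST3, a chondroitin sulfotransferase, was lower at -2.27 in normoxia (3.8e-05) and -1.45 in hypoxia (0.0289). CHSY3, a chondroitin synthase, was lower in normoxia at -1.70 (0.00331), a call lost after centring (0.107) and without monolayer normoxia replicate 3 (0.243). In hypoxia CHST15 was higher at 1.41 (0.0325) and DSE lower at -1.34 (0.0415); these 2 calls and that of CHST3 in hypoxia were lost on leaving out single libraries, with adjusted p up to 0.192, 0.272 and 0.337.

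KLRF1, the receptor that CLEC2B binds in human, had 0 reads in all 12 libraries, and the limit set by 3 reads was 0.180 RPM or less in each group. Of 18 C-type lectin-like receptors on the list, 14 were in the table and 3 passed the filter. OLR1 was lower in EHT normoxia at -1.54 (limma adjusted p = 0.00647) and CLEC1A higher in hypoxia at 1.60 (0.0111). The OLR1 call was lost after centring (0.267) and without EHT normoxia replicate 3 or monolayer normoxia replicate 2 (up to 0.121), and that of CLEC1A on leaving out single libraries (up to 0.178).

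Neighbouring genes along the chromosome were taken from the RefSeq gene table of the macaque assembly T2T-MMU8v2.0, used for gene order only because the build behind the files is not given in the sources used here. It listed 7 of the 8 genes, with PRR4 unmatched. The 2 nearest protein-coding genes on each side that the files also list gave 28 neighbours, of which 19 passed the filter; this choice was made after the values of the 8 genes were seen. By limma 4 were higher and 1 lower in EHT in each oxygen condition, beside 2.69% higher and 25.6% lower over all genes tested in normoxia and 5.02% and 7.83% in hypoxia. After centring, 9 were higher and 1 lower in normoxia, beside 22.8% and 18.5% of all genes, and 4 were higher and 4 lower in hypoxia, beside 18.4% and 19.7%.

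FAM20A had 3 of those 4 higher neighbours. ABCA6, a lipid transporter family member, had log2 differences of 3.65 in normoxia (limma adjusted p = 3.7e-12) and 2.81 in hypoxia (5.9e-07). Its relative ABCA8 had 1.70 (0.00272) and 1.86 (0.00204), and WIPI1, an autophagy protein, had 1.22 (0.0396) and 1.47 (0.0202). Calls of ABCA8 were lost without monolayer normoxia replicate 2 (0.0535) or monolayer hypoxia replicate 1 (0.0564), and those of WIPI1 without single libraries (up to 0.136 and 0.241), while both passed after centring. WIPI1 overlaps FAM20A in the RefSeq table, and whether counting used strand is not given, so reads of the 2 cannot be told apart with certainty. The fourth, TRPA1, an irritant-sensing ion channel next to MSC, had 2.86 (1.1e-07) and 1.64 (0.0102), the hypoxia call being lost after centring (0.131) and without EHT hypoxia replicate 3, monolayer hypoxia replicate 2 or monolayer normoxia replicate 3 (up to 0.694).

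Neighbours of the other genes gave few calls on the deposited values. TNFSF4 (OX40 ligand), a TNF family ligand next to TNFSF18, had -0.04 and 0.05 (limma adjusted p = 0.964 and 0.975), and TNFSF9, next to CD70, had 0.06 and -0.71 (0.936 and 0.378). None of the 5 tested neighbours of CD70 and TNFSF18 passed on the deposited values, but other scalings gave calls. After centring, GPR108, next to CD70, was higher in normoxia at 1.10 (9.4e-05) and PRDX6, next to TNFSF18, lower in hypoxia at -0.88 (6.1e-04), and both also passed under the other 3 scalings. SUCO, next to TNFSF18, was lower in both conditions under median-of-ratios scaling at -0.46 and -0.45 (0.0256 and 0.0301), and with voom (0.0343 and 0.0354). Under quantile normalization SUCO and PRDX6 were lower in normoxia (0.00706 and 0.0169), and TNFSF4 and TNFSF9 were higher there (0.00925 and 0.0130). Next to SRGN, DDX50 was lower in normoxia at -1.22 (0.0385), a call lost without 6 of the libraries in turn (up to 0.259). Next to CHRNA1, GPR155 was lower in hypoxia at -1.68 (0.00761), a call lost without EHT hypoxia replicate 1 or monolayer hypoxia replicate 3 (up to 0.0899). In the same table MSC overlaps an unnamed long noncoding gene and CLEC2B overlaps KLRF2, neither of them listed in the files.

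**Figure D5:**
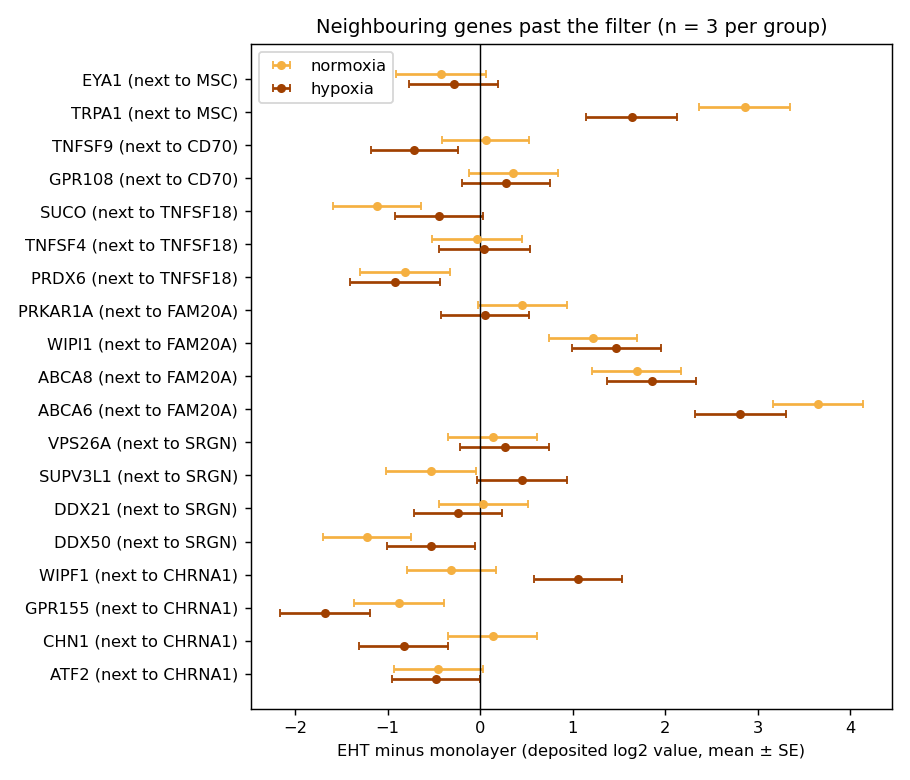
EHT minus monolayer difference of the deposited log2 values, as mean ± SE with 3 libraries per group, for the 19 chromosomal neighbours past the filter, in normoxia and hypoxia. All SEs come from the variance trend shared by all genes. ABCA6 next to FAM20A and TRPA1 next to MSC lie farthest to the right in normoxia, at 3.65 and 2.86, and both neighbours of CD70 and all 3 of TNFSF18 lie below 1.

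Genes with the most similar profile were found by the root mean square difference over the 12 libraries between values centred on each gene's own mean, a description that the shared library scaling also enters. Among the 28 pairs of the 8 genes, CD70 and FAM20A were closest at 0.58 log2 units, followed by PRR4 and MSC, and MSC and CD70, both at 0.70, and by TNFSF18 and CHRNA1 at 0.71. PRR4 and SRGN were farthest apart at 2.09. SRGN had no close match among all 12084 genes, its nearest being TNFSF18 at 1.29, ITGBL1 at 1.33 and CASP1 at 1.35.

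Outside the 8 genes, the nearest to FAM20A was F2RL2 (a thrombin receptor family member) at 0.38, with S100A4 and NETO1 at 0.55. SPON2, a secreted matrix protein, came next to MSC at 0.73 and to PRR4 at 0.85, and its mean was 1108 RPM in EHT normoxia and 34.2 in monolayer normoxia. TIMP3, an inhibitor of matrix metalloproteinases, was 0.64 from CD70. The nearest to CHRNA1 were CMAH at 0.64, ALDH3A1 at 0.66 and the TRAIL receptor TNFRSF10A at 0.69, and ALDH3A1 and CMAH also followed TNFSF18 at 0.87 and 0.91. CLEC2B was nearest to KCNN4 (a calcium-activated potassium channel) at 0.64, TRIM22 at 0.72 and NETO1 at 0.85, and NETO1 was also the third of PRR4 at 1.10. Of the 24 nearest genes, 18 were also among the nearest 3 after median-of-ratios scaling. Those that were not were NETO1 for PRR4, FAM20A and CLEC2B, ALDH3A1 and TNFRSF10A for CHRNA1, and MSC for CD70.

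The TRAIL receptor TNFRSF10A was also on the receptor list. Its mean was 34.3 RPM in EHT normoxia, 3.76 in monolayer normoxia, 21.0 in EHT hypoxia and 4.96 in monolayer hypoxia, with log2 differences of 2.66 (limma adjusted p = 1.1e-06) and 1.65 (0.0101). The hypoxia call was lost without monolayer hypoxia replicate 2 (0.0990).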

How the data were processed

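The deposited table holds variance-stabilised log2 values that the authors made with DESeq2 after HISAT2 alignment and featureCounts counting, per the submitters' processing notes. Tool versions, genome build and annotation: not given in the sources used here. RNA was extracted with RNeasy, prepared with an Ion Total RNA-Seq kit and sequenced on the Ion Proton, per the labels. Solving that transformation for each value returned whole read counts (tolerance 0.01) for 100% of values. The authors' library scaling was 0.412 to 1.42 times a median-of-ratios scaling, and library medians ran from 6.98 to 8.75. Monolayer normoxia replicate 3 had the 0.412 and the 8.75, and EHT normoxia replicate 2 the 1.42 and the 6.98. By limma, 25.6% of all genes tested were lower in EHT than in monolayer in normoxia. The share was 16.2% without the first of these libraries, 17.4% without the second and 34.9% without monolayer normoxia replicate 1. The all-gene median difference of -0.66 became -0.27, -0.56 and -0.92.

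Genes whose mean lay at least 1 log2 unit above the minimum were tested. limma 3.58.1 in R 4.3.3 fitted 1 mean per group to all 12 libraries, with a mean-variance trend, adjusting p-values by Benjamini-Hochberg over all genes tested at 0.05. It was tested on simulated data under median-of-ratios scaling, which cannot show how it behaves under the authors' scaling. The 8 genes and the lists were chosen with earlier results of these data known. Genes named besides the 8 are fixed partners, at most 3 called genes with the smallest p per list and comparison, the 3 nearest profiles per gene, and chromosomal neighbours, which were added after the values were seen. Alternatives were library centring, quantile normalization, other filters and variance models, array weights, a replicate block, leaving out each library, and, added after the data were seen, median-of-ratios scaling with and without the block, voom on recovered reads, and leaving out both EHT replicates 3. Figures were drawn with matplotlib 3.10.9. No sequences or coordinates were used here.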

Additional observations from a re-analysis of the deposited data

Results flagged for a closer look

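CD70 and FAM20A lay on opposite sides in the 2 cultures. For CD70 the ratio of hypoxic to normoxic mean RPM (reads scaled to 1000000 per library) was 0.311 in EHT and 4.54 in monolayer, and every library followed the direction of its culture. For FAM20A the ratios were 0.470 and 5.04, again with no overlap in either culture. The monolayer normoxia means behind these ratios rest on only 9 reads for CD70 and 19 for FAM20A. The difference between the cultures was not tested, because the same libraries chose the genes. On the deposited values the EHT ranges of both genes overlapped, while their monolayer ranges did not.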

How the results depend on the processing

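On the deposited values all genes shared 1 trended variance (infinite prior degrees of freedom, 4.77 after centring). The SEs and p-values of the main model, the smallest ones included, therefore hold none of a gene's own spread between replicates. Over all genes, 1016 were called higher and 1777 lower in the averaged oxygen comparison, against 3420 and 2536 after centring; the cause was not tested. Of the 8 genes, 1 was called lower in hypoxia; it was 0 after centring, quantile normalization, no filter, median-of-ratios scaling or voom, 5 with array weights (whose estimation did not converge, and with which 37.6% of all genes were lower and 31.0% higher), and 0 to 2 on leaving out each library, with 2 without EHT hypoxia replicate 3. Under quantile normalization and array weights 1 was called higher. The averaged difference turned to 0.0077 for PRR4 and 0.072 for CD70 after centring, and to 0.16 for PRR4, 0.63 for CD70 and -0.45 for CLEC2B with voom. It turned to -0.90 for MSC and -0.13 for SRGN with array weights, and to -0.36 for MSC and -0.064 for SRGN without both EHT replicates 3. On leaving out each library it ran from -0.91 to 0.23 for PRR4, -0.48 to 0.35 for MSC, -0.51 to 0.15 for CD70, -0.53 to 0.49 for SRGN, -0.033 to 0.27 for CLEC2B and -1.40 to -0.71 for TNFSF18.

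The 5 pathway genes higher in EHT normoxia became 20 (centring), 22 (quantile), 15 (array weights), 18 (median-of-ratios), 18 (voom) and 4 to 8 (single libraries left out). The share of all genes called higher went from 2.69% to 22.8%, 23.8%, 11.9%, 19.1% and 21.1% in the first 5 of these. The 26 lower became 14, 17 and 49 in the first 3 of these settings, 17 with a filter at 2 log2 units, and 15 to 33 with single libraries left out, 15 without monolayer normoxia replicate 3; over all genes 25.6% were lower, and 18.5%, 21.6%, 52.2% and 22.1% in the first 4 of these. In hypoxia the 10 higher became 16 (centring), 21 (array weights), 16 (median-of-ratios) and 5 to 10 (single libraries left out, 5 without monolayer hypoxia replicate 1 and 6 without replicate 2), and the 12 lower became 39 (array weights), 19 (median-of-ratios) and 8 to 15. Over all genes in hypoxia 5.02% were higher and 7.83% lower, against 18.4% and 19.7% (centring), 21.8% and 40.0% (array weights) and 17.8% and 22.4% (median-of-ratios). With the replicate number as a replicate block, the higher genes in normoxia went from 5 to 8, and with median-of-ratios scaling and the block to 19, with 16 higher and 20 lower in hypoxia (over all genes 3.60%, 18.8%, 17.7% and 21.9%); the TNFSF18 call held at 0.00647 with the block and at 0.00442 with median-of-ratios scaling and the block. Same-numbered EHT libraries of the 2 oxygen conditions had correlations of 0.04, 0.33 and 0.27 after removing group means. Those of the 2 monolayer groups were 0.001, 0.05 and 0.13, and those across the cultures ran from -0.10 to 0.32. Differently numbered libraries were not compared. Both EHT replicates 3 also had low cardiomyocyte sums, of 11.9 and 14.9 RPM, and 0 PTPRC reads. The main model did not take the numbers as pairs, and whether same-numbered libraries share an origin was not tested.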
